A study of Mus musculus with 4 samples.

Results

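The genes described here are the replication-dependent histone genes of the mouse, which lie in clusters and are named Hist1, Hist2, Hist3 and Hist4. They were taken by symbol from a table of RNA-seq counts, with pseudogenes left out, which gave 67 genes of the 53715 in the table. There were 6 H1, 18 H2A, 18 H2B, 12 H3 and 13 H4 genes, of which 54 lie on chromosome 13, 10 on chromosome 3, 2 on chromosome 11 and 1 on chromosome 6. The libraries came from C57BL/6 mouse embryos at E12.5, and their cells are labelled as primordial germ cells, from which eggs and sperm derive. There were 2 libraries labelled Rif1_KO, with a knockout of Rif1, and 2 labelled WT, of wild type. Rif1 encodes a chromatin protein that helps to set when each part of the genome replicates and how DNA breaks are repaired. The labels do not say how the allele was made, and they do not tie the libraries to separate embryos, so the spread behind each p-value may be technical. Each library was made from 1000 cells enriched with magnetic beads, by a modified Smart-seq2 protocol with Tn5 transposase.

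Histone proteins package DNA into nucleosomes, in which pairs of H2A-H2B dimers flank an H3-H4 tetramer, while H1 binds the linker DNA between nucleosomes. The cluster genes supply the bulk of these proteins while DNA is copied in S phase, and they are transcribed together in a nuclear body built around Npat. Most of their mRNAs carry no poly(A) tail and end in a short stem-loop, which is bound by Slbp and cut with the help of the U7 snRNP. Smart-seq2 in its usual form primes cDNA from poly(A) tails, and the sources used here do not describe how it was modified, so the counts may hold polyadenylated forms of these mRNAs more than stem-loop forms. The share of each form was not measured.

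The stem-loop letters are shown because they define the 3' end of these mRNAs. A search of the transcript models (GENCODE M21, the same genome build as the counts) found the stem-loop past the stop codon in 46 of the 67 genes, and at any position in 67 of 21901 coding genes (0.306%). The 67 coding genes were counted by the pattern alone, not by cluster membership. They include the 46, and no share without these was computed. In the 46 genes the stem-loop began 22 to 59 bases past the stop codon, with a median of 32. Of the 21 genes without it, 13 have models that end at the stop codon and cannot show it. There were 8 distinct sequences, and the 5 that more than 1 gene carries are printed 5′ to 3′ as DNA, with the 4-base loop in capitals.
H1, H2A, H2B and H3 form: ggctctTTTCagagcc
H1, H2B and H3 form with A in the loop: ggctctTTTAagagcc
H4 form: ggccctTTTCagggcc
H4 form with T in the loop: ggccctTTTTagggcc
H4 form with another stem: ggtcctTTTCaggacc
The H1, H2A, H2B and H3 form was carried by 26 genes, including Hist3h2a, Hist1h2ag, Hist3h2ba and Hist1h3b. The form with A in the loop was carried by 6 genes, including Hist1h3e. The H4 form was carried by 7 genes, including Hist1h4c, Hist1h4d and Hist1h4n. The H4 form with T in the loop was carried by Hist1h4i and Hist2h4, and the remaining stem by Hist1h4j and Hist1h4b. Among the 46, no H4 gene carried a stem of the other classes, and no gene of another class carried an H4 stem.

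The libraries held 12071903 and 14421298 counts under the label Rif1_KO, and 12768932 and 11724630 under the label WT (replicate 1, then 2, in this and every pair of values). Rif1, checked against the labels before any histone gene, stood at 86.2 and 63.9 CPM in the libraries labelled Rif1_KO and at 43.7 and 4.73 CPM in those labelled WT. CPM are counts per 1000000 of the library total of tested genes after TMM scaling. Rif1 was thus higher, not lower, under the label Rif1_KO (edgeR's quasi-likelihood test, log2 fold change 1.63, SE 1.01, adjusted p = 0.717), so every direction below is that of the labels. Summed over 20 germ cell markers, Rif1_KO libraries held 82.7 and 53.1 CPM and WT libraries 69.9 and 864 CPM, so the sum was highest in WT replicate 2. The defining marker Ddx4 stood at 1.05 and 0.530 CPM under Rif1_KO and at 0.645 and 59.2 CPM under WT. Dazl, an RNA-binding protein of germ cells, stood at 2.03 and 4.08 CPM under Rif1_KO and at 12.99 and 196 CPM under WT, and Prdm14, a regulator of germ cell fate, at 0.452 and 0.106 CPM under Rif1_KO and 19.9 and 18.4 CPM under WT, so both were higher in both WT libraries. Prdm1, another germ cell regulator, went the other way, with 0.904 and 17.7 CPM under Rif1_KO and 0.276 and 0.322 CPM under WT. The 18 erythroid markers summed to 9951 and 4292 CPM under Rif1_KO and 139273 and 114103 CPM under WT, and the 20 stromal markers to 2302 and 1899 CPM under Rif1_KO and 1040 and 786 CPM under WT. The 16 supporting cell markers summed to 1030.3 and 838 CPM under Rif1_KO and 888 and 925 CPM under WT, the 15 endothelial ones to 94.5 and 209.5 CPM under Rif1_KO and 426 and 177 CPM under WT, and the 15 leukocyte ones to 9.12 and 12.2 CPM under Rif1_KO and 6.63 and 23.4 CPM under WT. Gene models of an rRNA repeat region took 3.87% and 7.15% of counts under Rif1_KO and 15.8% and 17.6% under WT. In bulk RNA, fewer cells of a type and less RNA per cell cannot be told apart.

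The histone cluster genes together were a small part of each library, and which label had the higher sum depended on the scaling. They held 7431 and 9070 counts in the libraries labelled Rif1_KO and 6618 and 5417 counts in those labelled WT. As shares of the total these were 0.0616% (95% Clopper-Pearson interval 0.0602 to 0.0630) and 0.0629% (0.0616 to 0.0642) under Rif1_KO, and 0.0518% (0.0506 to 0.0531) and 0.0462% (0.0450 to 0.0474) under WT. These intervals cover counting error only. On the TMM scale the sum was 559.9 and 480.4 CPM under Rif1_KO and 609.7 and 582 CPM under WT, with means of 520.2 ± 56.2 and 596 ± 19.4 CPM (SD, n = 2 each). Both Rif1_KO libraries lay below both WT libraries, by a log2 ratio of the means of -0.20, but the ratio was 0.08 with upper-quartile scaling and 0.34 with unscaled totals, so its sign turned with the scaling. It was -0.28 with DESeq2 size factors and -0.10 with totals that leave out haemoglobin, rRNA-region and mitochondrial genes. Haemoglobin genes took 1.08% and 0.555% of counts under Rif1_KO and 11.8% and 8.92% under WT. The part of such genes in the shares of unscaled totals given here and below was not tested. The other histone genes, most of whose mRNAs are polyadenylated and made outside S phase as well, had far higher CPM. The 15 of them summed to 6167 and 6199 CPM under Rif1_KO and 6415 and 6391 CPM under WT. H3f3b alone held 3571 and 3930 CPM under Rif1_KO and 4233 and 4122 CPM under WT. Capture by poly(A) tails may enter this gap, which is one of counts and not of mRNA made, and its part was not tested.

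A few H2A genes made up much of the cluster sum. H2A genes held 63.6% and 49.8% of the summed CPM under Rif1_KO and 60.2% and 54.7% under WT. Hist3h2a alone held 19.9% and 23.7% under Rif1_KO and 34.5% and 34.7% under WT. Without Hist3h2a the other 66 genes summed to 448 and 367 CPM under Rif1_KO and 399 and 380.1 CPM under WT. On this TMM scale the labels overlapped and the log2 ratio of the means was 0.06. As shares of unscaled totals the 66 genes held 0.0493% and 0.0480% under Rif1_KO and 0.0340% and 0.0302% under WT, with no overlap. The 54 genes of chromosome 13 summed to 404 and 357 CPM under Rif1_KO and 383 and 375 CPM under WT, which also overlap. Their shares of unscaled totals did not, at 0.0444% and 0.0467% under Rif1_KO and 0.0326% and 0.0298% under WT.

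**Figure D1:**
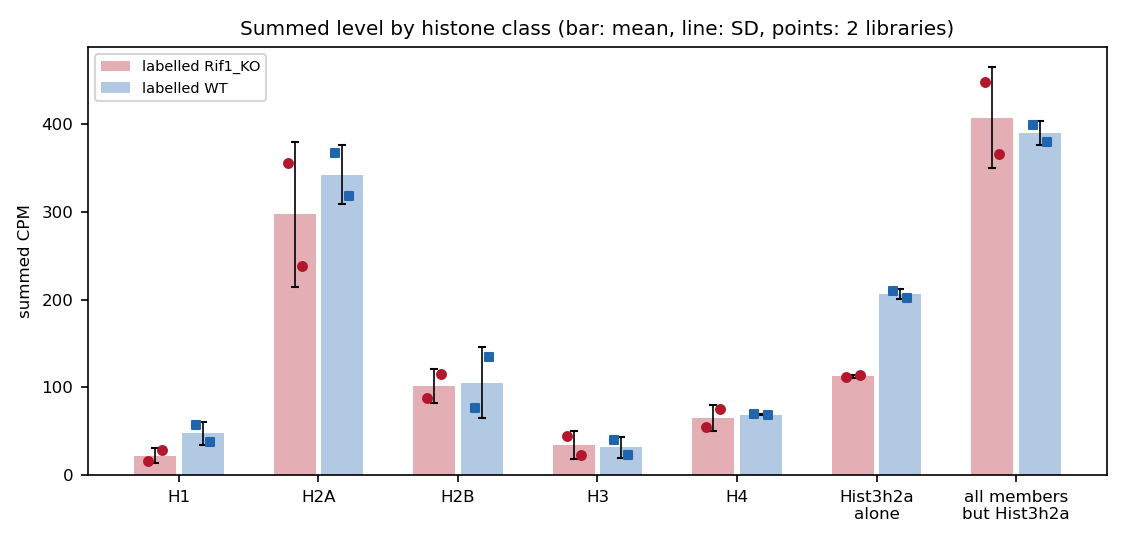
Summed CPM of the histone cluster genes by class, with Hist3h2a alone and all genes but Hist3h2a. Bars are means of 2 libraries, lines are SD, points are libraries (circles Rif1_KO, squares WT). H1 genes (means 22.2 and 47.6 CPM) and Hist3h2a (113 and 206 CPM) are lower under Rif1_KO with no overlap on this TMM scale, and the other classes overlap.

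By class, H1 genes summed to 16.4 and 28.0 CPM under Rif1_KO and 57.1 and 38.1 CPM under WT. Both Rif1_KO libraries were below both WT libraries, with means of 22.2 ± 8.20 and 47.6 ± 13.5 CPM (SD, n = 2 each), a log2 ratio of -1.10. Below 0 with every scaling tried, the ratio was -0.52 with unscaled totals, where the libraries overlapped at 0.00181% and 0.00367% of counts under Rif1_KO and 0.00486% and 0.00302% under WT. H2A genes averaged 297 ± 82.6 CPM under Rif1_KO and 343 ± 34.1 CPM under WT, and H2B genes averaged 102 ± 19.2 CPM under Rif1_KO and 105 ± 40.6 CPM under WT. H3 genes averaged 33.8 ± 15.9 CPM under Rif1_KO and 31.4 ± 11.6 CPM under WT, and H4 genes averaged 64.9 ± 14.9 CPM under Rif1_KO and 68.7 ± 0.798 CPM under WT. On the TMM scale the libraries of the 2 labels overlapped in each of these 4 classes. As shares of unscaled totals they still overlapped for H2B and H3 genes. H2A genes then held 0.0391% and 0.0313% under Rif1_KO and 0.0312% and 0.0253% under WT, with no overlap. H4 genes held 0.00598% and 0.00987% under Rif1_KO and 0.00589% and 0.00541% under WT, also with no overlap. An exact two-sided permutation test of 2 against 2 libraries cannot go below 0.33, so none was made of these sums.

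Gene by gene, 47 of the 67 passed the filter on low counts and were tested, and edgeR called none of them. edgeR's quasi-likelihood test called 0 of the 47 at an adjusted p under 0.05, beside 2 of 15466 genes over the whole table, or 0.0129%, both of them alpha-globins that were lower under Rif1_KO. The lowest adjusted p of a histone cluster gene was 0.571. At an unadjusted p under 0.05 edgeR had 5 of the 47, against 8.41% of all tested genes. Of these, 4 were higher, against 5.35% of all tested genes, and 1 was lower, against 3.05%. The 4 were Hist3h2ba, Hist1h3b, Hist1h4n and Hist1h4c. None of them reached 10 counts in a WT library, so they passed the filter only through the Rif1_KO libraries. Their direction is therefore not independent of the filter. Of the 47, DESeq2 called 1, Hist3h2ba, which was higher. Of all genes to which DESeq2 gave an adjusted p it called 3.65%, with 2.31% higher and 1.35% lower. The CPM of the 2 labels did not overlap in 9 of the 47 with higher values under Rif1_KO, against 21% of all tested genes, and in 8 with lower values, against 18.4%. The median log2 fold change of the 47 was -0.09, beside -0.11 over all tested genes, and 23 of the 47 were above 0, beside 46.1% of all tested genes. Scaling by DESeq2 size factors moved the median of all tested genes to -0.19 and upper-quartile scaling moved it to 0.16, and the fold change of any gene is relative to that shift.

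**Figure D2:**
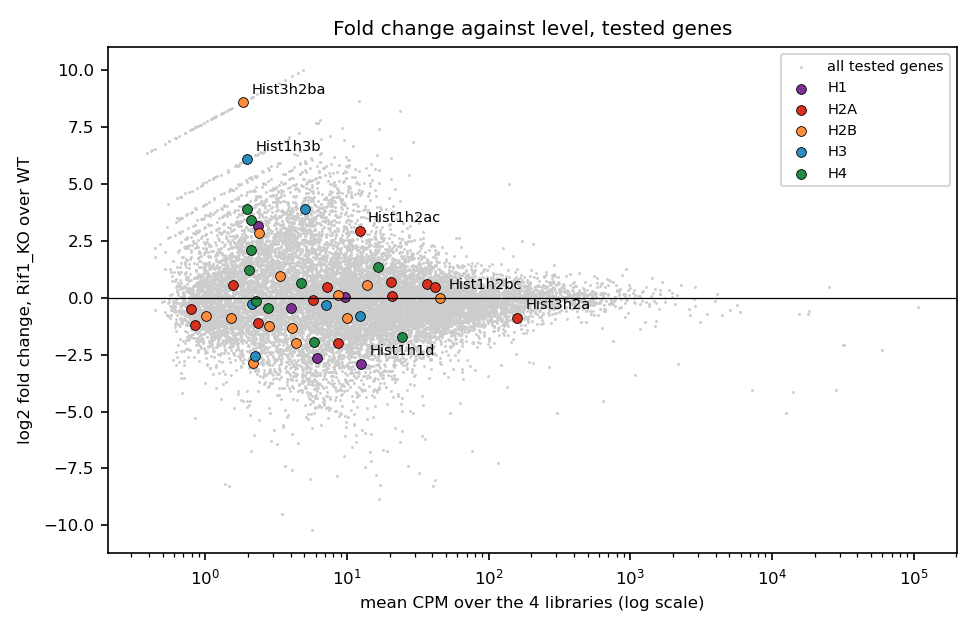
Log2 fold change (edgeR, Rif1_KO over WT) against mean CPM over the 4 libraries on a log scale, with 15466 tested genes in grey and the 47 tested histone cluster genes coloured by class. The histone genes lie on both sides of 0 within the grey cloud, from -2.90 for Hist1h1d to 8.60 for Hist3h2ba, whose fitted value rests on 0 counts in both WT libraries.

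Hist3h2a, a core H2A gene of the small chromosome 11 cluster (ENSMUSG00000078851.4, chromosome 11, 58954685 to 58956830, plus strand, mm10), was the cluster gene with the most counts in each library. It had 1482 and 2147 counts under Rif1_KO and 2282 and 1881 counts under WT, or 112 and 114 CPM under Rif1_KO and 210.2 and 202 CPM under WT. The libraries of each label lay close together and the labels did not overlap. Rif1_KO averaged 113 ± 1.45 CPM and WT 206 ± 5.68 CPM (SD, n = 2 each), a log2 fold change of -0.87 (SE 0.35) with an adjusted p of 0.577 by edgeR's quasi-likelihood test, so it was not called. The fold change was -0.60 with upper-quartile factors and ran from -0.89 to -0.78 without each library in turn. As a share of unscaled totals it also stayed lower, at 0.0123% and 0.0149% under Rif1_KO and 0.0179% and 0.0160% under WT. The erythroid marker sum was lower under Rif1_KO as well (9951 and 4292 CPM, against 139273 and 114103 CPM under WT), with all 18 markers below 0 on the log2 scale and 2 called by edgeR, and its part in the Hist3h2a difference was not tested.

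The Hist3h2a counts are shared with a neighbour. The first exon of Trim17, a gene for a ubiquitin ligase of the tripartite motif family, takes in the first 708 bases of the Hist3h2a model, with its whole coding sequence, and reads that overlap several genes were counted for each. Trim17 had 1427 and 2091 counts under Rif1_KO and 2018 and 1652 under WT, which is 96.3% and 97.4% of the Hist3h2a count under Rif1_KO and 88.4% and 87.8% under WT. Both models therefore cannot be told apart over this stretch. The count of Hist3h2a exceeded that of Trim17 by 55 and 56 under Rif1_KO and by 264 and 229 under WT, and at least that many fragments lay in the downstream part of the model alone.

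The H2A genes next in level lie on chromosome 13, and of the 6 given here only Hist1h2ac separated the labels. Hist1h2ag (ENSMUSG00000069301.5, chromosome 13, 22042460 to 22042944, minus strand, mm10) had 71.1 and 26.3 CPM under Rif1_KO and 31.0 and 39.9 CPM under WT. Hist1h2ah had 65.1 and 22.4 CPM under Rif1_KO and 29.2 and 29.2 CPM under WT. Hist1h2ap had 499 and 236 counts under Rif1_KO and 138 and 171 counts under WT. All 3 core H2A genes were highest in Rif1_KO replicate 1, and their log2 fold changes of 0.46 (SE 0.75), 0.58 (SE 0.81) and 0.69 (SE 1.07) turned to -0.34, -0.30 and -0.23 without it. Hist1h2ae had 21.5 and 21.2 CPM under Rif1_KO and 31.0 and 9.78 CPM under WT, which bracket the Rif1_KO values. Hist1h2ai had 5.65 and 1.27 CPM under Rif1_KO and 22.4 and 5.37 CPM under WT, which overlap in part. Hist1h2ac had 9.87 and 33.5 CPM under Rif1_KO and 2.40 and 3.22 CPM under WT, higher in both Rif1_KO libraries, but edgeR did not call it (log2 fold change 2.95, SE 1.36, adjusted p = 0.622).

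**Figure D3:**
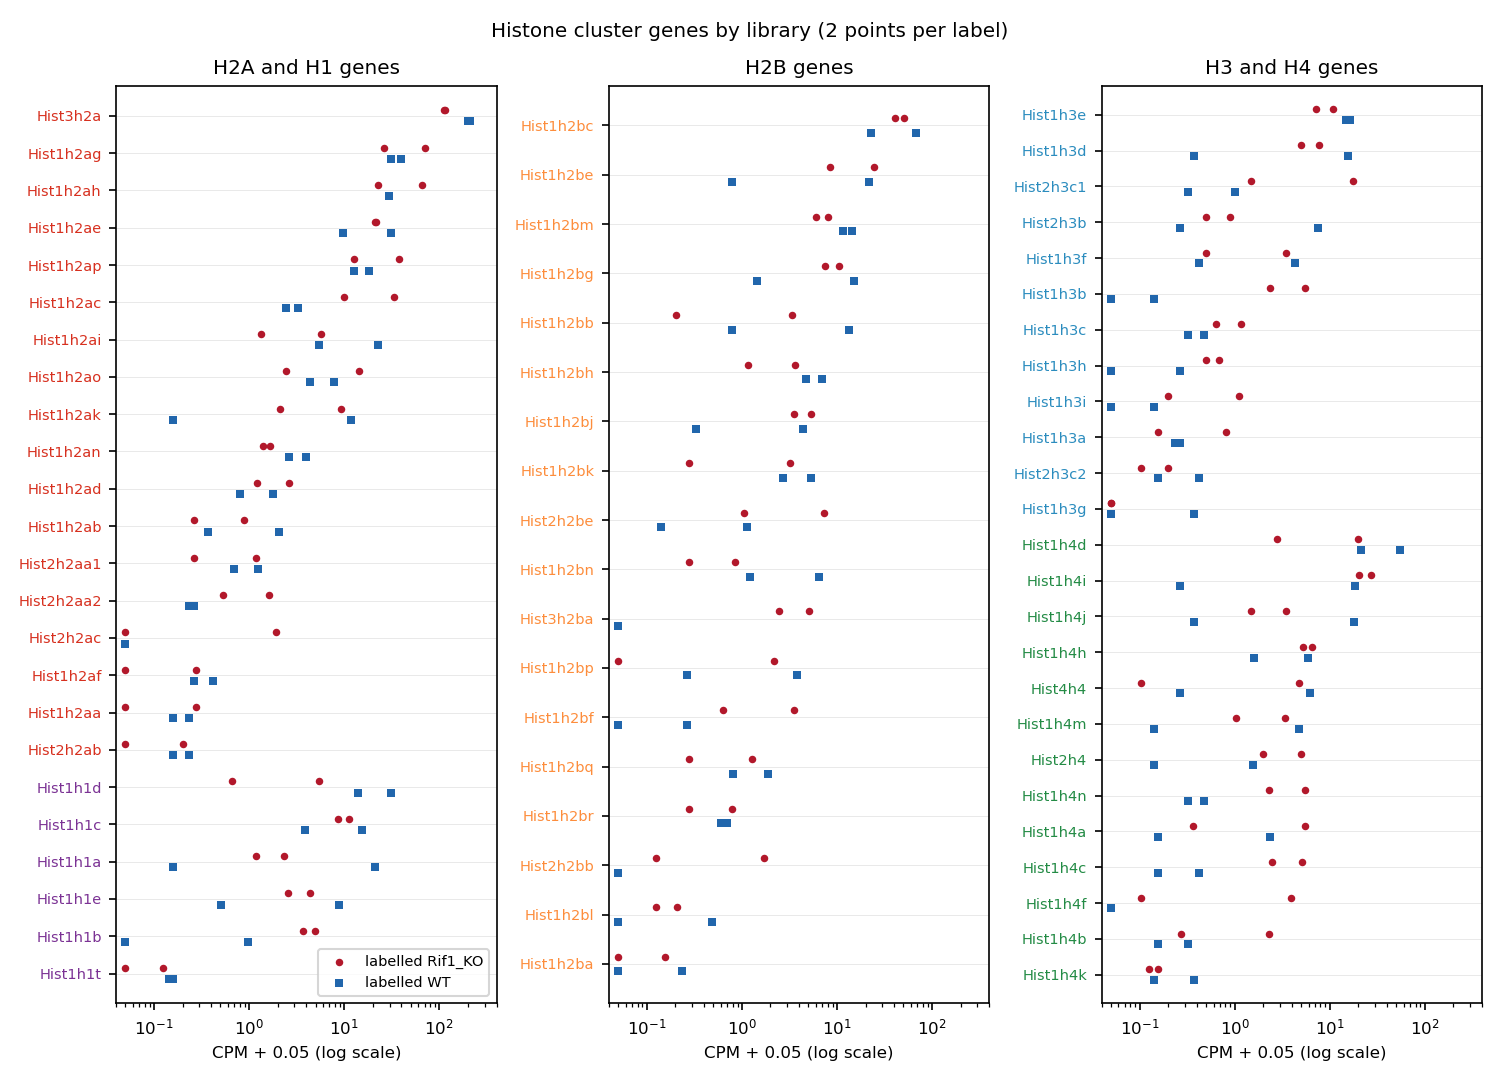
CPM plus 0.05 on a log scale for each of the 67 histone cluster genes, with symbols coloured by class and sorted by mean within a class (circles Rif1_KO, squares WT). Hist3h2a stands at 112 and 114 CPM under Rif1_KO and 210.2 and 202 CPM under WT, and many lower genes differ widely between libraries of 1 label.

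Among H2B genes, which pair with H2A in the dimer, Hist3h2ba was detected under Rif1_KO only. It had 66 and 46 counts in the libraries labelled Rif1_KO and 0 and 0 in those labelled WT, or 4.97 and 2.44 CPM under Rif1_KO, which is at least 12.4-fold higher when each WT library is set at the floor of 3 counts. DESeq2 called it with an adjusted p of 0.0245 and edgeR did not, with 0.571. It lies near Hist3h2a on chromosome 11, whose log2 fold change was below 0. Hist1h2bc had 40.5 and 50.4 CPM under Rif1_KO and 22.9 and 67.6 CPM under WT, the highest H2B level, with WT values on both sides of the Rif1_KO values. Hist1h2be had 8.44 and 24.5 CPM under Rif1_KO and 0.737 and 21.5 CPM under WT, so WT replicate 1 stood apart from the other 3 libraries. Its exons overlap those of Hist1h1e, so their counts are shared in part. Hist1h2bn had 0.226 and 0.794 CPM under Rif1_KO and 6.45 and 1.18 CPM under WT, lower in both Rif1_KO libraries (edgeR log2 fold change -2.86, SE 1.39, adjusted p = 0.632). Of the 13 tested H2B genes, 6 had a fold change above 0 and 7 below.

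The 12 H3 genes were low, and 6 were tested. Hist1h3e, the highest, had 10.9 and 7.15 CPM under Rif1_KO and 14.9 and 16.1 CPM under WT, lower in both Rif1_KO libraries (edgeR log2 fold change -0.79, SE 1.18, adjusted p = 0.904). Hist1h3b had 73 and 44 counts under Rif1_KO and 1 and 0 counts under WT. The ratio of its summed rates was 73.4, with an exact 95% counting interval of 12.9 to 2922. This interval pools the reads of each label and leaves out the spread between libraries. Hist1h3b was named for its small p and passed the filter only through the Rif1_KO libraries, so its direction is not independent of that choice. edgeR gave an adjusted p of 0.571 and DESeq2 of 0.0693. Hist2h3c1 of the chromosome 3 cluster had 231 and 27 counts under Rif1_KO and 3 and 9 counts under WT, so it was higher in both Rif1_KO libraries and mostly in replicate 1. It shares its reads with the overlapping transcript Gm20634 (247 and 31 counts under Rif1_KO, 16 and 18 under WT). Hist2h3b had 6 and 16 counts under Rif1_KO and 81 and 2 counts under WT, high in WT replicate 1 alone. The 10 genes of chromosome 3 summed to 35.04 and 7.63 CPM under Rif1_KO and 9.86 and 4.84 CPM under WT, which overlap. Their shares of unscaled totals did not, at 0.00385% and 0.000999% under Rif1_KO and 0.000838% and 0.000384% under WT.

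H4 genes, partners of H3 in the tetramer, held the highest class median, a log2 fold change of 0.95 over 10 tested genes, with 6 above 0. This median depends on the filter, as Hist1h4n and Hist1h4c reached 10 counts only in Rif1_KO libraries. On the TMM scale the H4 sum did not share its direction. It averaged 64.9 CPM under Rif1_KO and 68.7 CPM under WT, a log2 ratio of -0.08. Hist1h4n had 30 and 103 counts under Rif1_KO and 3 and 4 counts under WT. Hist1h4c had 32 and 95 counts under Rif1_KO and 4 and 1 counts under WT. Both were higher in both Rif1_KO libraries, with log2 fold changes of 3.42 (SE 1.24) and 3.90 (SE 1.30), and edgeR called neither (adjusted p 0.573 and 0.571). Hist1h4d, an H4 gene with a long model past the stop codon, had 2.71 and 20.02 CPM under Rif1_KO and 21.5 and 54.3 CPM under WT, lower in both Rif1_KO libraries by a narrow margin (edgeR log2 fold change -1.73, SE 1.23, adjusted p = 0.758). Hist1h4i had 20.3 and 27.0 CPM under Rif1_KO and 18.5 and 0.215 CPM under WT. Its value in WT replicate 2 was far below the other 3, and without WT replicate 1 its log2 fold change was 6.77. That fit leaves a lone WT library, in which Hist1h4i had 2 counts. The gene then passed the filter only through the Rif1_KO libraries, so its direction there is not independent of the filter.

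The 6 H1 genes encode linker histones. Hist1h1d had 8 and 101 counts under Rif1_KO and 334 and 128 counts under WT, or 0.603 and 5.35 CPM under Rif1_KO and 30.8 and 13.8 CPM under WT. Both Rif1_KO libraries lay below both WT libraries, and edgeR did not call it (log2 fold change -2.90, SE 1.53, adjusted p = 0.662). Without Hist1h1d the other 5 H1 genes summed to 15.8 and 22.7 CPM under Rif1_KO and 26.3 and 24.3 CPM under WT, a log2 ratio of -0.40, against -1.10 with it. They did not overlap on this scale, but they did as shares of unscaled totals, at 0.00174% and 0.00297% under Rif1_KO and 0.00224% and 0.00193% under WT. The erythroid marker sum was lower in the same libraries, and its part in the H1 sum was not tested. The genes of the clusters that are known for expression in the male germ line were near 0: Hist1h1t, the linker histone of spermatocytes, had 1 and 0 counts under Rif1_KO and 1 and 1 under WT. Hist1h2aa, a testis H2A, had 3 and 0 counts under Rif1_KO and 2 and 1 under WT, and Hist1h2ba, a testis H2B, had 0 and 2 counts under Rif1_KO and 2 and 0 under WT. These counts are at or under the floor of 3 counts per library and give no difference.

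Many cluster genes were detected by few reads. Counts above 0 were found for 64 and 61 of the 67 genes under Rif1_KO and for 59 and 59 under WT, and 50 genes were detected in all 4 libraries. At least 10 counts were reached by 45 and 50 genes under Rif1_KO and by 34 and 28 under WT. Over the whole table that count was reached by 15226 and 16211 genes under Rif1_KO and by 13314 and 13566 under WT, which is also more under Rif1_KO, and the part of this and of the lower rRNA share under Rif1_KO in the count of cluster genes was not tested. Of the 47 tested genes, 11 (23.4%) were more than 4-fold apart between the Rif1_KO libraries and 17 (36.2%) between the WT libraries. Over all tested genes in the middle range of the members' mean CPM (5355 genes) these shares were 21.7% under Rif1_KO and 41.8% under WT. Across the 47 genes, Spearman's rho between libraries was 0.56 within Rif1_KO and 0.40 within WT, beside 0.83 and 0.61 across all tested genes. Genes are not independent replicates, so no p is given for these correlations.

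Per length, the order of the cluster genes was led by core H2A genes. Over the 4 libraries the mean levels were 90.1 CPM per kb for Hist1h2ah, 86.7 for Hist1h2ag, 74.3 for Hist3h2a, 42.1 for Hist1h2ap and 39.3 for Hist1h2bc. The ranges of the first 3 over the libraries overlap, so their order is not fixed. The class medians per gene were 5.46 CPM per kb for H2A, 3.78 for H4, 2.72 for H2B, 2.63 for H1 and 1.32 for H3. Hist1h1t was lowest of all 67, at 0.0754 CPM per kb.

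H2A and H2B genes often lie head to head, with their start sites close together and the genes pointing apart. There were 12 such pairs with at most 500 bases between the models. The H2A partner had the higher mean level per kb in 11 of the 12, by as little as 1.00-fold for Hist2h2ac over Hist2h2be, and it was higher in all 4 libraries in 7. Hist2h2ac was counted in Rif1_KO replicate 1 alone, and Hist1h2aa and Hist1h2ba had 6 and 4 counts over all libraries. Hist1h2bq and Hist1h2br have models of 2015 and 2212 bases, against 480 and 482 for their partners Hist1h2ao and Hist1h2ap, which bears on a level per kb. Hist1h2ag was 11.97-fold and Hist1h2ah 15.2-fold above their partners Hist1h2bj and Hist1h2bk. The exception was Hist1h2ac, which was at 0.126 times the level of Hist1h2bc and below it in every library. Both partners were tested in 7 pairs, and the sign of the log2 fold change agreed in 5 of those 7.

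**Figure D4:**
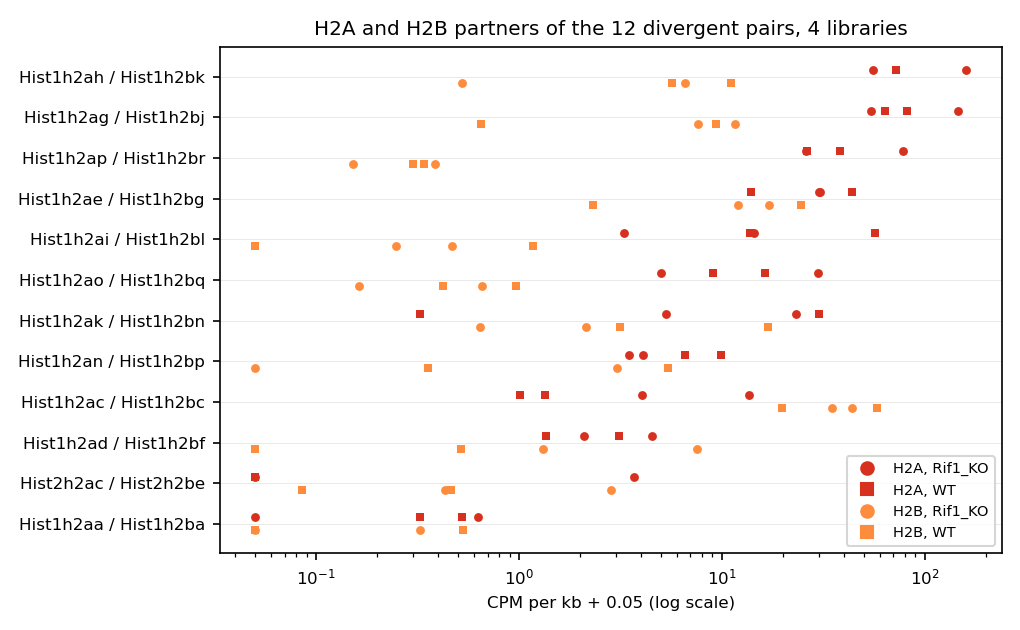
CPM per kb plus 0.05 on a log scale for the H2A (red) and H2B (orange) partner of 12 head-to-head pairs in each library (circles Rif1_KO, squares WT), sorted by the mean H2A level. The H2A points lie to the right of the H2B points in all 4 libraries in 7 pairs, and to the left for Hist1h2ac and Hist1h2bc.

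The promoters of these genes share short letters that are known from S-phase histone genes. RefSeq promoters (GRCm38.p6, 250 bases before to 50 after the start) were matched for 62 of the 67 genes, with 63 promoters in all. Both strands were searched. CCAAT, the letters bound by NF-Y, were found in 85.7% of the 63 promoters and 37.4% of all 32851. They were in every H1, H2A, H2B and H3 promoter searched but in 3 of 12 H4 promoters. TATAAA was found in 55.6% against 13.6% of all. TTTGCAT, the core of the octamer bound by Oct-1, was found in 23.8% against 4.63% of all, and in 38.9% of H2A and 41.2% of H2B promoters. AAACACA, known as the H1 box, was found in 5 of 6 H1 promoters and in 7.18% of all promoters. A match to letters is a description and does not show a bound site. The promoters of Hist1h2ag and Hist3h2a are shown because these H2A genes are among the 3 highest per length and, of this pair, only Hist3h2a separated the labels, with CCAAT (or its reverse, ATTGG) and TTTGCAT (or its reverse, ATGCAAA) in capitals.
Hist1h2ag, RefSeq H2ac11, chr13:22042900-22043199, minus strand: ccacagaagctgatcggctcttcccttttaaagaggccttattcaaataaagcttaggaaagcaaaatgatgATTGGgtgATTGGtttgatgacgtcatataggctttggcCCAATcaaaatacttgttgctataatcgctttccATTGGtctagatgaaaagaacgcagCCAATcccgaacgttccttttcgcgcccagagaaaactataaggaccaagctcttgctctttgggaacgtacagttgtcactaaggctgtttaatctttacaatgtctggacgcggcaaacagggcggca
Hist3h2a, RefSeq H2aw, chr11:58954435-58954734, plus strand: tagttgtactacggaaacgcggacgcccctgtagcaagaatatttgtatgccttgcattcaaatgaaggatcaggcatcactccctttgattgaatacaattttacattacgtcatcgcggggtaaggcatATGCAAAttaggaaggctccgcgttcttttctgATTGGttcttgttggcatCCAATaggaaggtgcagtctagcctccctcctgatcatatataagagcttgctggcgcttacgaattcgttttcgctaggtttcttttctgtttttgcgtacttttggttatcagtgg
Both hold CCAAT letters, and only the Hist3h2a promoter holds the octamer core within this window.

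The gene models differ in how far they run past the stop codon, which bears on which mRNA forms can be counted. At least 200 bases past the stop codon are annotated for 25 genes. These held 49.8% and 69.6% of the summed CPM under Rif1_KO and 64.3% and 72.1% under WT. They summed to 279 and 334 CPM under Rif1_KO and 392 and 419.5 CPM under WT, which do not overlap on the TMM scale. Without Hist3h2a they summed to 167 and 221 CPM under Rif1_KO and 182 and 217 CPM under WT, which do. As shares of unscaled totals the 25 genes overlapped. Without Hist3h2a their shares were 0.0184% and 0.0289% under Rif1_KO and 0.0155% and 0.0172% under WT, with no overlap. The 42 genes with shorter models summed to 281 and 146 CPM under Rif1_KO and 218 and 163 CPM under WT. The median level per kb was 2.75 CPM for the 25 genes and 2.95 CPM for the 42. A level per kb divides by the whole gene model, so the bases past the stop codon themselves bear on this comparison.

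**Figure D5:**
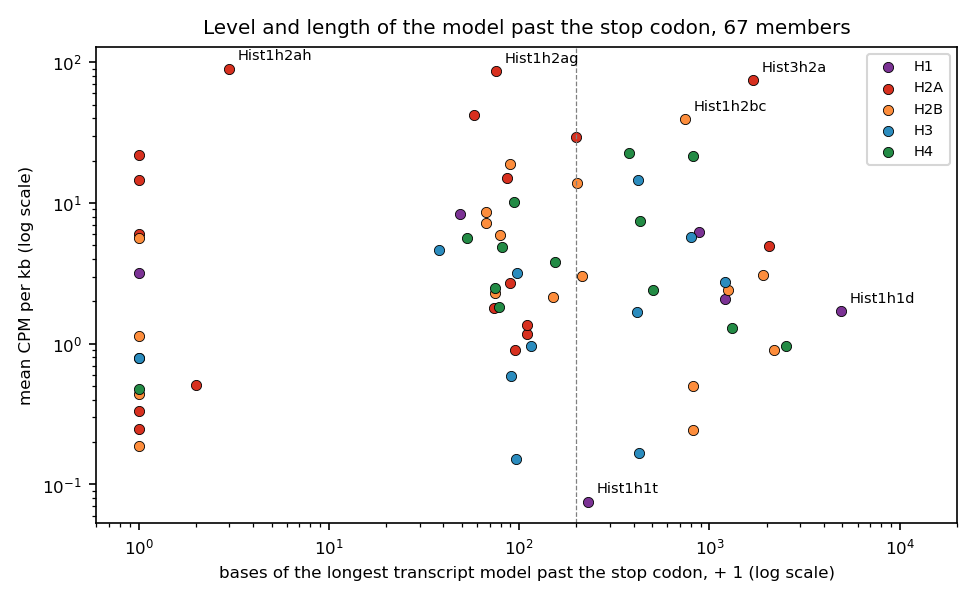
Mean CPM per kb over the 4 libraries against the number of bases of the longest coding model past the stop codon, plus 1, both on log scales, for the 67 histone cluster genes coloured by class. The dashed line marks 200 bases, and genes on either side span overlapping ranges of levels, with Hist1h2ah (90.1 CPM per kb) left of it and Hist3h2a (74.3) right of it. Levels divide by the whole gene model, bases past the stop codon included.

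Counts of near-identical copies are uncertain. In 24 of the 67 genes less than 50% of the 100-base transcript windows were free of an exact match in another cluster gene, among them Hist1h2ah (12.1%), Hist1h2ap (7.80%) and Hist1h2ag (23.8%), and Hist2h2aa2 had no such window. Reads below a mapping quality of 30 were not counted, so genes with copies can be undercounted. Exons of 24 genes, 17 of them tested, overlap another gene model. In 17 H2A genes that model is a short RNA of 129 to 144 bases annotated as a miRNA inside the histone gene, and in the 13 tested ones it took 13.05% to 83.7% of the histone gene's count, with a median of 62.3%, so the same fragments appear under both names.

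Of the histone genes outside the S-phase clusters, 13 of 15 were tested. edgeR called 0 and DESeq2 0, and at an unadjusted p under 0.05 edgeR had 0 higher and 2 lower. Beside these and the list counts that follow, edgeR gave such a p to 5.35% of all tested genes as higher and 3.05% as lower, and DESeq2 called 2.31% higher and 1.35% lower. The median log2 fold change was 0.01. The linker histone H1f0, which accumulates in cells that stop dividing, had 104 and 137 CPM under Rif1_KO and 226 and 242 CPM under WT. The H2A variant H2afj had 49.2 and 37.3 CPM under Rif1_KO and 117 and 90.5 CPM under WT. Both were lower in both Rif1_KO libraries, with log2 fold changes of -0.96 (SE 0.35) and -1.26 (SE 0.51) and edgeR adjusted p of 0.573 and 0.583. The oocyte linker histone H1foo had 0.301 and 34.4 CPM under Rif1_KO and 0.276 and 1.72 CPM under WT, high in Rif1_KO replicate 2 alone.

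Among 36 tested factors of histone mRNA 3' end formation, export and decay, edgeR called 0, and the median log2 fold change was 0.20. Unadjusted p-values under 0.05 were given to 1 that was higher and 1 that was lower. DESeq2 called Cstf2, a cleavage stimulation factor subunit, with 62.5 and 45.1 CPM under Rif1_KO and 0.737 and 1.83 CPM under WT (adjusted p = 2.73e-05 by DESeq2 and 0.571 by edgeR). DESeq2 also called Upf1, the helicase of histone mRNA decay, with 6.56 and 10.01 CPM under Rif1_KO and 61.4 and 44.7 CPM under WT (adjusted p = 0.0460 by DESeq2 and 0.571 by edgeR). Slbp, which binds the stem-loop and is named for that role, had 311 and 243 CPM under Rif1_KO and 445 and 71.5 CPM under WT, which overlap.

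Of 24 tested regulators of histone gene transcription, edgeR called 0 with a median log2 fold change of 0.22. At an unadjusted p under 0.05 edgeR had 0 higher and 1 lower, which was Hinfp, the H4 promoter factor, with 0.603 and 0.742 CPM under Rif1_KO and 18.9 and 3.98 CPM under WT (adjusted p = 0.0253 by DESeq2 and 0.577 by edgeR). Npat, the scaffold of the histone locus body, had 11.8 and 10.2 CPM under Rif1_KO and 0.829 and 12.7 CPM under WT, low in WT replicate 1 alone.

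Of 28 tested histone chaperones, edgeR and DESeq2 called 0, and edgeR gave 1 higher and 0 lower an unadjusted p under 0.05. The median log2 fold change was 0.47. CPM did not overlap in 10 with higher values under Rif1_KO, against 21% of all tested genes, and in 0 with lower values, against 18.4%. Such counts were 8 higher and 4 lower of the 36 3' end factors and 7 and 4 of the 24 transcription regulators. They were 10 and 3 of the 41 S-phase genes and 2 and 5 of the 13 histone genes outside the clusters. Nap1l1, a chaperone of H2A-H2B, had 475 and 298 CPM under Rif1_KO and 186 and 192 CPM under WT (edgeR log2 fold change 1.03, SE 0.35, adjusted p = 0.571). Daxx, a chaperone of the variant H3.3, had 6.86 and 7.04 CPM under Rif1_KO and 1.20 and 0.967 CPM under WT. Supt16, a subunit of the FACT complex, had 439 and 267.8 CPM under Rif1_KO and 231 and 197 CPM under WT. Both were higher in both Rif1_KO libraries and were not called by edgeR (adjusted p 0.632 and 0.634). Of 41 tested S-phase genes edgeR called 0, with a median log2 fold change of 0.43, and gave 1 higher and 0 lower an unadjusted p under 0.05. DESeq2 called Cdc6, a licensing factor, with 16.4 and 16.2 CPM under Rif1_KO and 0.368 and 0.967 CPM under WT (adjusted p = 0.00397 by DESeq2 and 0.571 by edgeR). Cdc6 had 4 and 9 counts under WT and passed the filter only through the Rif1_KO libraries, so its direction is not independent of the filter. DESeq2 also called Pole, a replicative polymerase subunit, with 1.73 and 0.900 CPM under Rif1_KO and 20.5 and 8.06 CPM under WT (adjusted p = 0.0395 by DESeq2 and 0.598 by edgeR). On the TMM scale the S-phase genes summed to 2255 and 2219 CPM under Rif1_KO and 2263 and 1599 CPM under WT. On that scale the sum of the cluster genes and that of the S-phase genes were not ordered alike over the libraries. As shares of unscaled totals the cluster genes were ordered otherwise, with both Rif1_KO libraries highest. The S-phase genes were not summed on unscaled totals, so the orders were not compared there.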

How the data were processed

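RNA was measured in 4 libraries, 2 labelled Rif1_KO and 2 labelled WT, grouped by the genotype label and numbered by the titles. The authors deposited 1 table of whole-number counts per gene, not normalized. HISAT2, SAMtools, featureCounts, Trim Galore and FastQC are named with build mm10, per the submitters' processing notes. Per the file headers, featureCounts 1.6.2 counted read pairs on GENCODE M17 at a mapping quality of at least 30, for every gene they overlap, with no strand option. Antisense and overlapping genes can therefore share counts.

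Gene IDs were matched to symbols; 95 of 53715 had none. Genes were kept with filterByExpr (minimum count 10), which left 15466. Testing used the quasi-likelihood fit of edgeR 4.0.16 in R 4.3.3 (robust, TMM factors), with Benjamini-Hochberg adjustment over all tested genes at 0.05. The SE of a log2 fold change is its size over the root of F. DESeq2 1.42.0, limma-voom (limma 3.58.1), other scalings, filters and sets of members, a replicate block and leaving out each library were alternatives. The steps were tested on simulated data. Each library counted as 1 replicate. Libraries of a label differed beyond sampling noise (chi-square per degree of freedom 86.6 for Rif1_KO, 107 for WT), which does not show that they came from separate embryos. Transcript models came from GENCODE M21, in which all 67 genes have the same start and end, and promoters from RefSeq. The members, lists and tests were chosen with earlier results of these data known. The genes named are the 12 tested cluster genes highest in mean CPM, the 6 with the smallest p in each direction, those called by edgeR or DESeq2, the one with the most counts in each class, and 3 testis genes. From each list of histone or S-phase genes, those called by edgeR or DESeq2 are named, otherwise the 3 with the smallest p. Marker lists are given by their sums. Rif1, Ddx4, Dazl, Prdm14, Prdm1, Slbp, Npat, Trim17, Gm20634, genes that only illustrate a pair or a sequence, and Hist1h1e lie outside this rule and were chosen after their values were seen.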

Additional observations from a re-analysis of the deposited data

How the results depend on the processing

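Of the 20 named tested cluster genes, 13 kept the sign of their fold change without each library in turn, and 128 of 133 values under other settings had the same sign. With all 4 libraries no cluster gene was called by edgeR under any scaling or filter tried, by limma-voom or with the replicate block. DESeq2 called 1, Hist3h2ba. The only other call was Hist1h4i without WT replicate 1, where it passed the filter through the Rif1_KO libraries alone. The replicate numbers did not pair the libraries (correlation of same-numbered deviations -0.0234). With the replicate block the number of genes called over the table was 7 instead of 2, that of the pathway and marker lists 6 instead of 2, and the median log2 fold change of the cluster genes 0.30 instead of -0.09. That median was 0.27 with limma-voom, 0.27 with no filter and -0.0283 to 1.18 without each library. The table count was 0 with upper-quartile factors, 521 with DESeq2, 54 with no filter, 0 with the stricter filter and 5 to 1345 without each library, the highest without WT replicate 1. The list count was 0, 21, 14 and 0 in the same settings and 2 to 38 without each library. The log2 ratio of the summed cluster genes, -0.20, was 0.0813 with upper-quartile factors, 0.34 with unscaled totals and -0.28 with DESeq2 size factors. It was -0.0990 with totals that leave out haemoglobin, rRNA-region and mitochondrial genes, 0.0640 without Hist3h2a and -0.31 to -0.09 without each library. Hist1h2ae turned to -0.0133 with DESeq2 size factors in edgeR and -0.0136 with DESeq2, and Hist1h2bc to -0.0767 and -0.0766 in the same settings and to -0.0492 with the stricter filter. Without each library the fold changes ranged from -0.23 to 1.33 for Hist1h2ap, -0.30 to 1.21 for Hist1h2ah, -0.34 to 1.06 for Hist1h2ag, -0.53 to 1.18 for Hist1h2ae, -0.34 to 4.47 for Hist1h2be, -0.52 to 0.99 for Hist1h2bc and -3.49 to 1.61 for Hist2h3b. The cause of these shifts was not tested. The common coefficient of biological variation was 0.842 with 2 libraries per label, and the floor of 3 counts equals 0.159 to 0.322 CPM.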

Other observations

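Of the 70 genes that match the cluster names, 3 are pseudogenes and were left out. Hist1h2aj, which is annotated as one, had 218 and 81 counts in the libraries labelled Rif1_KO and 109 and 25 counts in those labelled WT, or 16.4 and 4.29 CPM under Rif1_KO and 10.04 and 2.69 CPM under WT. The values overlap. The other 2, Hist3h2bb-ps and Hist1h2al, had 0 counts in all 4 libraries.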
